A study of Mus musculus with 8 samples.

Results

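The genes described here present antigen: they cut proteins into peptides, load the peptides onto MHC molecules and display them on the cell surface. Of 10 genes named for the set, 9 had a probe and were read by 10 probes, out of 36169 features (19896 named genes and the probes with no symbol). They were taken by gene symbol alone, after older symbols had been updated, so that the probe listed as Ii is reported as Cd74. The transporter subunit gene Tap2 was not analysed here. B2m, Tap1, Tapbp, Psmb8 and Psmb9 belong to the class I pathway, and Cd74, H2-Aa, H2-Ab1 and H2-Eb1 to the class II pathway.

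Liver RNA came from 3 mice labelled as knockouts (Me1-/-) of Me1, the cytosolic malic enzyme gene that was once called Mod1, and from 5 littermates labelled as wild type. On 2-colour arrays each mouse was hybridised together with pooled RNA from wild-type livers (n = 5), and every value below is a log2 ratio, mouse over pool. The sources used here do not give age, sex, strain, diet or how the Me1 allele was made. The numbers in the labels name the mice: wild types are 14, 15, 21, 22 and 26, knockouts 27, 31 and 33.

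In the class I pathway the proteasome cuts proteins inside the cell, and under interferon its catalytic subunits are exchanged for Psmb8 and Psmb9, which make the immunoproteasome. Tap1, paired with Tap2, carries the peptides into the endoplasmic reticulum, where tapasin (Tapbp) holds the transporter next to the empty class I molecule, and beta-2-microglobulin (B2m) is the light chain of every class I complex. In the class II pathway the alpha and beta chains (H2-Aa with H2-Ab1, and the beta chain H2-Eb1) assemble on the invariant chain Cd74 and pick up peptides of swallowed proteins. Nearly all nucleated cells make class I, while class II in liver is mostly made by Kupffer cells, dendritic cells, B cells and sinusoidal endothelial cells, and interferon-gamma induces both.

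Ratios say nothing of absolute levels, so neither the liver label nor the absence of any cell type could be checked by level. The 10 hepatocyte markers had a median ratio between -0.07 and 0.23 in every mouse. The base and the direction of the ratios were inferred and not stated. If the pool stands for the wild types, the mean ratio of the 5 wild types should be 1, and over the 9 genes it ran from 0.984 to 1.026 when values were read as mouse over pool. It ran from 0.988 to 1.128 when they were read as pool over mouse. The knockout arrays cannot be checked in that way. Over all probes knockout 33 correlated at r = -0.394 with wild type 14 and at r = 0.264 with wild type 22. The wild types correlated with each other at r = -0.459 (22 with 26) to 0.391 (14 with 26). The 3 knockout arrays correlated with each other at r = 0.420 to 0.622. These correlations do not give the direction. Since no source states the direction, that of the knockout arrays is treated as unsettled, and differences are also given after turning the knockout arrays' sign ("sign turned"). Counts at an unadjusted p and counts without overlap are given in the inferred direction alone. The array of wild-type mouse 22 had the widest spread of log2 ratios over all probes, with an SD of 0.291 against 0.127 to 0.273 for the others. Me1 itself had a log2 ratio of 0.82, -0.64, -0.70, -1.73 and 0.70 across wild types 14, 15, 21, 22 and 26. It stood at 0.82, -0.81 and -0.68 across knockouts 27, 31 and 33. Knockout 27 was thus as high as the highest wild type, and the lowest mouse was wild type 22. The mean was -0.31 ± 1.07 (SD, n = 5) in the wild type and -0.22 ± 0.90 (SD, n = 3) in the knockout. The groups overlapped (difference 0.09 ± 0.64, exact permutation p = 0.875, and 0.54 with the sign turned). The probe's place in the gene is not given, so it does not check the labels.

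Neither pathway separated the genotypes at the threshold used. In limma with Benjamini-Hochberg adjustment over all features, 0 of the 9 genes passed adjusted p 0.05, against 0.0276% of all features (10 of 36169). At an unadjusted p of 0.05, 1 of the 9 passed, lower in the knockout, against 9.28% of all features in either direction and 5.02% lower. In 0 of the 9 did the 3 knockouts lie outside the range of the 5 wild types, against 7.21% of all features (2.85% with all knockouts below). The knockout minus wild-type difference was below 0 for 8 of the 9 genes, against 44.7% of all features, with a median of -0.06 beside 0.01 over all features. That median ran from -0.21 (without knockout 31) to -0.04 with 1 mouse left out, and was -0.16 without wild type 15 and -0.15 without wild type 22. With the sign turned, 0 of the 9 passed (0.0221% of all features did), 8 were above 0 and the median was 0.21. For Psmb8, Psmb9, Cd74, H2-Aa and H2-Eb1 the highest and the lowest mouse were both wild types. For B2m, Tap1, Tapbp and H2-Ab1 the highest was a wild type and the lowest a knockout. Class I and class II genes had unlike orders of the wild types.

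**Figure D1:**
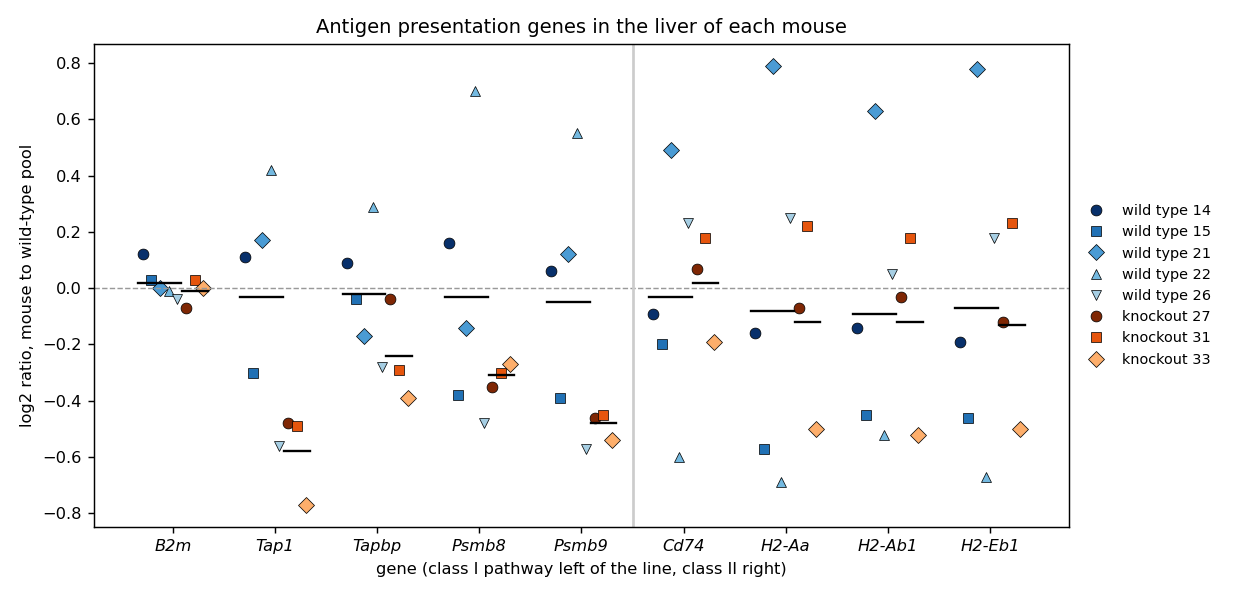
Log2 ratio to the wild-type pool (vertical axis) of each of the 9 genes (horizontal axis), 1 point per mouse, blue for the 5 wild types and brown to orange for the 3 knockouts, with short lines at the group means. Mouse 22 is the highest for Tap1, Tapbp, Psmb8 and Psmb9, and mouse 21 the highest for the 4 class II genes. The average of the B2m probes lies between -0.07 and 0.12 in all mice.

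Among the class I genes the peptide transporter subunit Tap1 had the largest difference. Its log2 ratio was 0.11, -0.30, 0.17, 0.42 and -0.56 across wild types 14, 15, 21, 22 and 26 and -0.48, -0.49 and -0.77 across knockouts 27, 31 and 33. The knockouts lay below 4 of the 5 wild types, and wild-type mouse 26 lay among them. The mean was -0.03 ± 0.39 (SD, n = 5) in the wild type and -0.58 ± 0.17 (SD, n = 3) in the knockout. The difference of -0.55 ± 0.21 (SE), 31.8% lower in the knockout, had a 95% confidence interval from -1.04 to -0.06. It missed the threshold by limma (unadjusted p = 0.031, adjusted p = 0.508) and by a two-sided exact permutation test that ran through all 56 splits (p = 0.0714, where the smallest possible is 0.0179).

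For the immunoproteasome subunits Psmb9 and Psmb8 the knockouts lay close together inside a broad wild-type range, while for Tap1 knockout 33 lay below every wild type. Psmb9 stood at 0.06, -0.39, 0.12, 0.55 and -0.57 across wild types 14, 15, 21, 22 and 26 and at -0.46, -0.45 and -0.54 across knockouts 27, 31 and 33. Psmb8 stood at 0.16, -0.38, -0.14, 0.70 and -0.48 in the wild types and at -0.35, -0.30 and -0.27 in the knockouts, in the same order. Wild types 15 and 26 were about as low as the knockouts, and mouse 22 the highest value of all. The SD was 0.45 and 0.48 (n = 5) in the wild type and 0.05 and 0.04 (n = 3) in the knockout for Psmb9 and Psmb8. The differences of -0.44 ± 0.23 for Psmb9 and -0.28 ± 0.25 for Psmb8 did not pass by limma (adjusted p = 0.588 and 0.74) or by the exact permutation test (p = 0.179 and 0.429). Set against the pool alone, which leaves out the spread of the wild types, the knockout value of Psmb9 was -0.48 ± 0.04 and passed by limma (adjusted p = 0.0363), as did 0.594% of all features. Tap1 and Psmb8 did not pass there (adjusted p = 0.0749 and 0.0701).

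Tapasin, the bridge between transporter and class I molecule, had a narrower range. Tapbp stood at 0.09, -0.04, -0.17, 0.29 and -0.28 across wild types 14, 15, 21, 22 and 26 and at -0.04, -0.29 and -0.39 across knockouts 27, 31 and 33. Knockout mouse 27 lay among the wild types, and the difference of -0.21 ± 0.14 did not pass (limma adjusted p = 0.653, exact permutation p = 0.196). B2m, the light chain, varied little as the average of its 2 probes. That average was 0.12, 0.03, 0.00, -0.01 and -0.04 in the wild types and -0.07, 0.03 and 0.00 in the knockouts. The B2m difference was -0.03 ± 0.05 (limma adjusted p = 0.845), with a 95% confidence interval from -0.15 to 0.08. Its 2 probes gave -0.11 ± 0.08 and 0.04 ± 0.05. They moved apart in some mice, at -0.14 and 0.13 in wild type 21 and at -0.21 and 0.08 in knockout 27. The first probe alone ran from -0.21 to 0.18 over all mice, so the average hid part of its range. The wild-type SD of the averaged B2m ratio, 0.06, was reached or passed by 76.8% of all features. That of Tap1, Psmb8 and Psmb9 was reached by 4.5%, 2.69% and 3.2%.

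The class I differences moved either way with single wild-type mice. Without mouse 22 Tap1 stood at -0.44, Psmb9 at -0.29, Psmb8 at -0.10 and Tapbp at -0.14. Without mouse 22 and knockout mouse 33 together they stood at -0.34, -0.26, -0.11 and -0.06. Without mouse 26 they were wider, at -0.68, -0.57, -0.39 and -0.28. With the sign turned they stood at 0.61, 0.53, 0.34 and 0.26, B2m stayed at -0.01, and none passed.

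The class II genes were high in the same mice and low in the same mice, in both genotypes. H2-Aa, the alpha chain, had a log2 ratio of -0.16, -0.57, 0.79, -0.69 and 0.25 across wild types 14, 15, 21, 22 and 26 and of -0.07, 0.22 and -0.50 across knockouts 27, 31 and 33. H2-Eb1, a beta chain, had -0.19, -0.46, 0.78, -0.67 and 0.18 in the wild types and -0.12, 0.23 and -0.50 in the knockouts. H2-Ab1, the beta chain that pairs with H2-Aa, had -0.14, -0.45, 0.63, -0.52 and 0.05 in the wild types and -0.03, 0.18 and -0.52 in the knockouts. The invariant chain Cd74 had -0.09, -0.20, 0.49, -0.60 and 0.23 in the wild types and 0.07, 0.18 and -0.19 in the knockouts. Wild-type mouse 21 was the highest for all 4 genes, and wild-type mice 15 and 22 and knockout mouse 33 were the 3 lowest for all 4.

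Among the 5 wild types the highest mouse exceeded the lowest 2.80-fold for H2-Aa, 2.73-fold for H2-Eb1, 2.22-fold for H2-Ab1 and 2.13-fold for Cd74. The wild-type SD of 0.61 for H2-Aa was reached by 1.35% of all features, and those of H2-Eb1, H2-Ab1 and Cd74 by 1.68%, 2.93% and 3.82%. The genotypes overlapped throughout. The difference was -0.04 ± 0.34 for H2-Aa, -0.04 ± 0.27 for H2-Ab1, -0.06 ± 0.32 for H2-Eb1 and 0.05 ± 0.23 for Cd74, with limma adjusted p between 0.949 and 0.975 and exact permutation p between 0.893 and 0.946. The intervals were wide, from -0.82 to 0.74 for H2-Aa, so these 8 mice do not show that class II was alike in the genotypes. Without wild-type mouse 21 the 4 differences lay between 0.14 and 0.18, without mouse 22 between -0.21 and -0.09, and with the sign turned between 0.01 and 0.21. In whole liver, fewer cells of a type and less RNA per cell cannot be told apart.

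**Figure D2:**
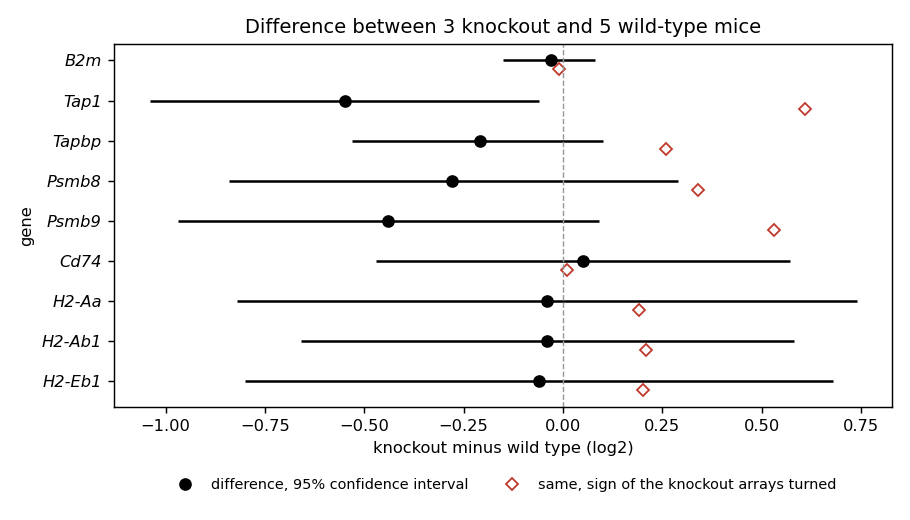
Knockout minus wild-type difference in log2 ratio (horizontal axis) for each gene (vertical axis), with dots and bars for the limma estimate and its 95% confidence interval (3 knockout and 5 wild-type mice) and open diamonds for the estimate with the sign turned. The interval of Tap1 ends at -0.06 and all others span 0, and the diamonds of Tap1, Psmb9, Psmb8 and Tapbp lie between 0.26 and 0.61.

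The likeness between genes was measured over the 8 mice for all 36 pairs, with p adjusted over the pairs. All values share the pool. Tap1 and Psmb9 had a Pearson r of 0.967 (exact permutation p = 0.000248, adjusted p = 0.00223) and a Spearman rho of 0.952 (exact permutation p = 0.00114, adjusted p = 0.00821). Without the 2 mice farthest from the median of Tap1, wild-type mice 21 and 22, r was 0.943, and with the genotype means removed it was 0.965. H2-Aa and H2-Eb1 had r = 0.995 (exact permutation p = 9.92e-05, adjusted p = 0.00179) and rho = 0.952 (exact permutation p = 0.00114, adjusted p = 0.00821), and r = 0.987 without mice 21 and 22. Within class II r ran from 0.919 to 0.995 in the 6 pairs, and all 6 passed adjusted p 0.05 by the exact permutation test. Within class I without B2m it ran from 0.791 to 0.967 and 3 of 6 pairs passed, those among Tap1, Psmb8 and Psmb9. By Spearman rho 1 of these 3 passed, Tap1 with Psmb9. Tap1 with Psmb8 had rho = 0.643 (exact permutation p = 0.0962, adjusted p = 0.315) and Psmb8 with Psmb9 rho = 0.762 (exact permutation p = 0.0368, adjusted p = 0.147). Without wild type 22 the lowest class I r was 0.524 and the median 0.691.

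No correlation between the pathways passed. Tap1 and H2-Aa had r = -0.005 and rho = -0.214 (exact permutation p = 0.99 and 0.619), and r was -0.033 without mice 21 and 22. Over the 16 pairs of Tap1, Tapbp, Psmb8 or Psmb9 with a class II gene, r ran from -0.642 to 0.099 and 0 passed adjusted p 0.05. The median of these 16 was -0.313, and 0.231 without wild-type mouse 22, the mouse with the highest class I and the lowest class II values among the wild types. The difference between the within-pathway and between-pathway values was not tested. The average of the B2m probes had r between 0.198 and 0.312 with the other class I genes. With the sign turned, the median r was 0.964 within class II, 0.838 within class I without B2m and -0.185 between them.

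**Figure D3:**
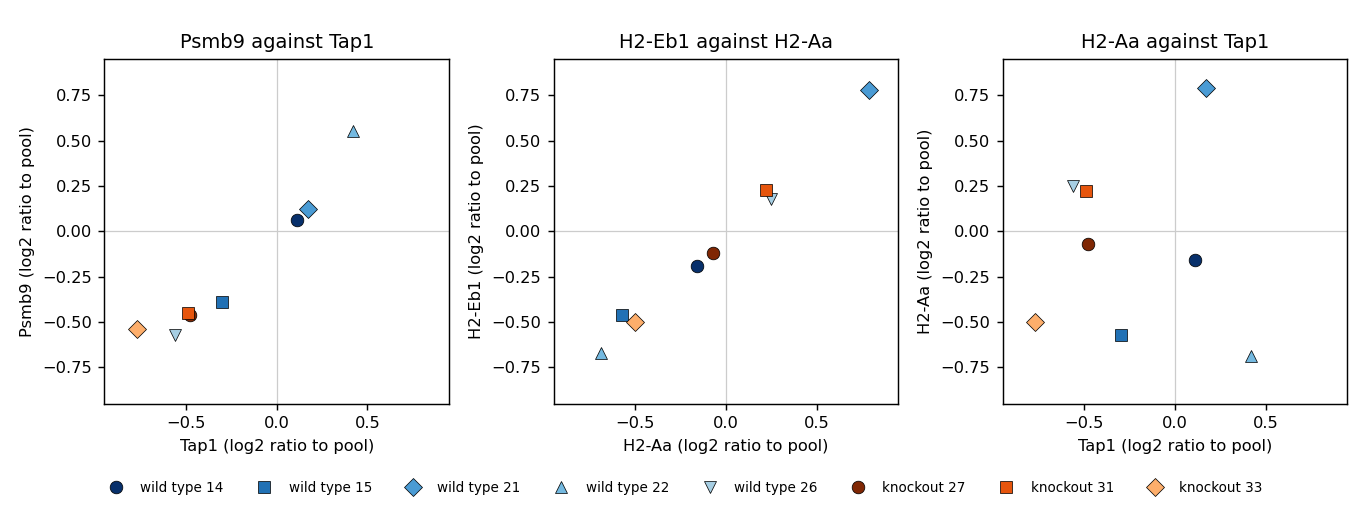
Log2 ratio to the pool of 1 gene against another, 1 point per mouse, for Psmb9 against Tap1, H2-Eb1 against H2-Aa, and H2-Aa against Tap1, with wild types in blue and knockouts in brown to orange. The first pair has r = 0.967 and the second r = 0.995, while in the last (r = -0.005) mice 21 and 22 are both high for Tap1 but stand at 0.79 and -0.69 for H2-Aa.

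Tap1 and Psmb9 lie head to head on mouse chromosome 17, with 225 bases between their start sites, so that 275 bases of their 300-base promoter windows are the same sequence on opposite strands. The windows run from 250 bases before to 50 after the start, from RefSeq on build GRCm38.p6, and were found for 7 of the 9 genes. They were searched on both strands for the Y box core CCAAT, for GAAANNGAA (part of the interferon-stimulated response element), for TTCNNNGAA (the gamma-activated site) and for the kappa B consensus. These were present in 37.4%, 8.56%, 8.3% and 8.46% of 32851 promoters of that length. Of the class I genes the windows of Tap1 (mostly shared with Psmb9), Psmb8 and B2m are printed, and that of Tapbp is not. They were picked because Tap1, Psmb9 and Psmb8 had like values over the mice and the average of the B2m probes did not. Whether a match bears on those values was not tested. Capitals mark the matches:
Tap1, chr17:34187306-34187605, plus strand: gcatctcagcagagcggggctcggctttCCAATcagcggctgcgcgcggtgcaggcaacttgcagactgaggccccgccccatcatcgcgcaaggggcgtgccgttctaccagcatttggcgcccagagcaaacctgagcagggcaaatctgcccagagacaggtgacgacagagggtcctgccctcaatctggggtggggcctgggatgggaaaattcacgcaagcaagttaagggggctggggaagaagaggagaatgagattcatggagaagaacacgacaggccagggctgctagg
Psmb8, chr17:34197945-34198244, plus strand: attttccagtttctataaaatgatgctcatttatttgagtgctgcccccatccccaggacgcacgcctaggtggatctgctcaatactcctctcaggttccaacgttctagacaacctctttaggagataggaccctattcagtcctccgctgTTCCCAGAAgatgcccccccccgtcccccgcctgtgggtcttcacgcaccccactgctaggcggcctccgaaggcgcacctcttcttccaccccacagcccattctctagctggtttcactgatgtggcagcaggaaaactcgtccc
B2m, chr2:122147437-122147736, plus strand: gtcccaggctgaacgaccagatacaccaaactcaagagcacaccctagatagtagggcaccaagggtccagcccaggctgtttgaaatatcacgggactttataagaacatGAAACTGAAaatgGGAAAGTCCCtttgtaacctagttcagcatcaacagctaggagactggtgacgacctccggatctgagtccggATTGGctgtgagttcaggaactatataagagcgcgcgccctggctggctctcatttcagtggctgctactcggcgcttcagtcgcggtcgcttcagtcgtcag
The shared window of Tap1 and Psmb9 held a Y box core, that of Psmb8 a TTCNNNGAA match, and that of B2m a GAAANNGAA match, a kappa B match and a Y box core that do not overlap. That of Tapbp held 2 Y box cores.

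Class II promoters are known for a shared module of X and Y boxes, which the factors RFX, CREB and NF-Y bind and the coactivator Ciita acts on. The windows of H2-Aa and H2-Eb1, the pair with the highest r, are printed for comparison, with the same marks:
H2-Aa, chr17:34287774-34288073, minus strand: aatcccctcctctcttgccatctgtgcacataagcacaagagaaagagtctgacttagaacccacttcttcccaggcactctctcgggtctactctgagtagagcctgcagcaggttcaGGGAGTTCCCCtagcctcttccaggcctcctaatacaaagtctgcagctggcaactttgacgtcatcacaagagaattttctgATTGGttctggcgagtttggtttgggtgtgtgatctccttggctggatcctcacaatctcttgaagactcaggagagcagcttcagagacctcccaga
H2-Eb1, chr17:34305617-34305916, plus strand: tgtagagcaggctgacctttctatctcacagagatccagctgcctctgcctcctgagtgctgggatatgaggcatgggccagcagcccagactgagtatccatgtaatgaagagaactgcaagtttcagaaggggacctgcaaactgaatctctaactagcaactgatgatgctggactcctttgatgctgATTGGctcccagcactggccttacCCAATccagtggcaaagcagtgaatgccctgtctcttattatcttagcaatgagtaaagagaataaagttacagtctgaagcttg
A Y box core on the strand opposite to the gene lay at -48 from the start of H2-Aa and at -59 from that of H2-Eb1, and H2-Eb1 held another on its own strand at -35. The window of H2-Aa also held a kappa B stretch with 2 overlapping matches. A match describes letters in the window and no binding.

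The other genes of the class I pathway had differences between -0.27 and 0.09. Of 23 listed, 18 were measured, 14 were lower and 4 higher in the knockout with a median of -0.07, and 0 passed by limma either adjusted or at an unadjusted p of 0.05. Turning the sign left 6 lower and 12 higher. The median was -0.02 without wild type 22, -0.02 without knockout 33, -0.12 without wild type 15, -0.11 without knockout 31 and 0.03 without mice 22 and 33 together. The 3 with the smallest p were the TAP-binding related gene Tapbpl at -0.16 ± 0.11, the class I-like gene H2-T10 at -0.27 ± 0.18 and the proteasome activator Psme1 at -0.13 ± 0.09 (limma adjusted p = 0.669 to 0.692), and at 0.15, 0.26 and 0.12 with the sign turned. The class I heavy chains H2-K1 and H2-D1, named for their role, stood at -0.05 ± 0.10 and -0.07 ± 0.12, and at 0.07 and 0.06 with the sign turned. Heavy chain genes are near-identical copies, so which of them a probe reads is uncertain.

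An immunoproteasome subunit replaces a constitutive one, and the 3 replacements were compared within each mouse. Psmb9 minus Psmb6 was 0.06, -0.25, 0.10, 0.28 and -0.61 across wild types 14, 15, 21, 22 and 26 and -0.53, -0.66 and -0.48 across knockouts 27, 31 and 33. Its mean was -0.08 ± 0.35 (SD, n = 5) in the wild type and -0.56 ± 0.10 (SD, n = 3) in the knockout, a difference of -0.48 ± 0.17 that did not pass (exact permutation p = 0.0893, adjusted p = 0.268 over 3 pairs). Psmb8 minus Psmb5 differed by -0.14 ± 0.21 (exact permutation p = 0.679) and Psmb10 minus Psmb7 by -0.07 ± 0.16 (exact permutation p = 0.75). The ± of these 3 differences is an SE from each group's own SD. It is not that of the limma fit given for single genes, so the sizes are not comparable. Psmb10, the remaining immunoproteasome subunit, was highest in wild-type mouse 22 at 0.35 and lowest in mouse 26 at -0.45, with the knockouts between -0.21 and -0.01. Of 13 measured subunits of the constitutive core 9 were higher and 4 lower with a median of 0.02, and their median by mouse ran from -0.02 to 0.06. Psmb5 stood at -0.14 ± 0.07, Psma4 at 0.09 ± 0.05 and Psmb4 at 0.06 ± 0.06 (0.09, -0.13 and -0.13 with the sign turned), and 0 of the 13 passed at an unadjusted p of 0.05 by limma. With the sign turned 3 were higher and 10 lower, and the 3 replacement differences were 0.64 for Psmb9 minus Psmb6, 0.25 for Psmb8 minus Psmb5 and 0.20 for Psmb10 minus Psmb7.

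In the rest of the class II pathway 11 of 22 genes were higher and 11 lower in the knockout, with a median of -0.01, and none passed adjusted p 0.05 by limma. At an unadjusted p of 0.05, 4 were lower and 1 higher, beside 5.02% and 4.26% of all features. H2-Ob, a chain of the H2-O modulator of peptide loading, stood at 0.16 ± 0.05, with the knockouts at 0.09, 0.17 and 0.16 above a wild-type range of -0.11 to 0.07 (limma adjusted p = 0.434, exact permutation p = 0.0179). Marchf8, a ubiquitin ligase that removes class II from the surface, stood at -0.26 ± 0.08 (limma adjusted p = 0.437). The lysosomal protease cathepsin B, Ctsb, stood at -0.20 ± 0.07, with all knockouts below the wild types (limma adjusted p = 0.49, exact permutation p = 0.0179). Ciita, the class II coactivator, named for its role, lay between -0.08 and 0.13 in all mice, a narrower range than that of the class II chains. Its highest mouse was wild type 21, as for those chains. Its lowest was wild type 26, which was not among their lowest. H2-DMa, which edits the peptides on class II, also named for its role, stood at -0.38, 0.26, 0.05, 0.37 and -0.47 across wild types 14, 15, 21, 22 and 26, with mouse 22 high where the class II chains were low. Its partner chains differed from it. H2-DMb1 lay between 0.00 and 0.05 in the wild types, with the knockouts above at 0.07, 0.14 and 0.07 (limma adjusted p = 0.629, exact permutation p = 0.0179). H2-DMb2 stood at -0.01, -0.06, 0.14, -0.20 and 0.15 in the wild types, lowest in mouse 22 like the class II chains. In this list H2-Ob, Ctsb and H2-DMb1 had no overlap between the genotypes, beside 7.21% of all features. Turning the sign again gave 11 higher and 11 lower, and put H2-Ob at -0.12, H2-DMb1 at -0.12, Marchf8 at 0.27 and Ctsb at 0.18.

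Of 14 measured genes of interferon-gamma signalling, 8 were higher and 6 lower, with a median of 0.04, and none passed adjusted p 0.05 by limma. Both that passed an unadjusted p of 0.05 were lower in the knockout, beside 5.02% of all features that were lower and 9.28% in either direction. The receptor chain Ifngr2 stood at -0.32, -0.12 and -0.37 across knockouts 27, 31 and 33, below a wild-type range of -0.06 to 0.11. Its difference was -0.27 ± 0.07 (limma adjusted p = 0.348, exact permutation p = 0.0179), and 0.27 with the sign turned (limma adjusted p = 0.304). The transcription factor Irf8 of myeloid cells stood at -0.28 ± 0.10 (limma adjusted p = 0.48) and the cytokine Il18 at 0.27 ± 0.14 (limma adjusted p = 0.588). Irf1, which switches on class I pathway genes under interferon and is named here for its role, stood at -0.05, -0.39, 0.50, 0.04 and -0.24 across wild types 14, 15, 21, 22 and 26. Its highest mouse was 21, as for the class II chains, and not 22, as for Tap1. The list had no common order: among the wild types Irf9 and Irf2 were highest in mouse 22, at 0.49 and 0.73. Irf8 and Il18 were highest in mouse 21, at 0.13 and 0.27, and Ifngr2 in mouse 26, at 0.11. Turning the sign left 6 of the 14 higher and 8 lower, with Irf8 at 0.36 and Il18 at -0.25.

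Markers of the cells that carry these molecules were set beside them. Of 13 Kupffer cell and macrophage markers, 11 were lower and 2 higher in the knockout (median -0.18), and their median by mouse was 0.16, -0.11, -0.16, 0.24 and -0.36 across wild types 14, 15, 21, 22 and 26 and -0.21, -0.10 and -0.29 across knockouts 27, 31 and 33. The mean of the 5 class I genes was highest in the same mouse 22, at 0.39, and lowest in mice 26 and 33, both at -0.39. Mpeg1, a pore-forming protein of macrophages, stood at -0.64 ± 0.21 and the growth factor receptor Csf1r at -0.18 ± 0.11, but Vsig4, a complement receptor of Kupffer cells, at 0.15 ± 0.10, and none passed (limma adjusted p = 0.456 to 0.671). These stood at 0.73, 0.19 and -0.14 with the sign turned. The part of these cells in the class I values was not tested. The median difference of the macrophage markers was -0.09 without mouse 22 and -0.03 without mice 22 and 33.

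Of 10 dendritic cell markers 5 were higher and 5 lower (median 0.02), with a median by mouse from -0.03 to 0.07. Batf3, a factor of cross-presenting dendritic cells, stood at -0.48 ± 0.12, the integrin Itgax at -0.30 ± 0.12 and Zbtb46 at 0.11 ± 0.06. Of 9 measured B cell and plasma cell markers 8 were higher and 1 lower (median 0.13), with medians from -0.06 to 0.04 in the wild types and from 0.10 to 0.27 in the knockouts. Jchain stood at 0.34 ± 0.12, Cd79a at 0.13 ± 0.05 and Cd79b at 0.34 ± 0.17. Neither list had its highest median among the wild types in mouse 21, where the class II chains peaked. Sinusoidal endothelial markers were higher in 8 of 10 (median 0.11), with Fcgr2b at 0.44 ± 0.09 and Kdr at 0.21 ± 0.06 and Lyve1 at -1.01 ± 0.36. Of 14 T cell and natural killer cell markers 10 were higher and 4 lower (median 0.09), with Cd4 at 0.38 ± 0.14, Cd2 at 0.25 ± 0.10 and Cd8a at 0.24 ± 0.12. Of the 10 hepatocyte markers 7 were higher and 3 lower (median 0.14), with Ahsg at 0.24 ± 0.10, Apoa1 at 0.14 ± 0.07 and Cps1 at 0.41 ± 0.26. In these 6 lists of cell markers none passed adjusted p 0.05 by limma, where the lowest was 0.278. All knockouts lay below all wild types for Mpeg1 and Batf3, and above them for Cd79a, Fcgr2b and Kdr. Beside this, 7.21% of all features had no overlap in either direction. At an unadjusted p of 0.05, 1 macrophage and 2 dendritic cell markers were lower, 2 B cell, 2 T cell or natural killer cell and 1 hepatocyte marker were higher, and 3 endothelial markers were higher and 1 lower, beside 5.02% of all features that were lower and 4.26% that were higher. With the sign turned, 11 of 13 macrophage, 4 of 10 dendritic, 1 of 9 B cell, 4 of 14 T cell or natural killer cell, 2 of 10 endothelial and 2 of 10 hepatocyte markers were higher. Every marker named here then took the opposite sign, for example Batf3 at 0.53, Cd79b at -0.27, Cd4 at -0.47, Fcgr2b at -0.45, Lyve1 at 1.24 and Cps1 at -0.65, and none passed. The part of these cells in the class II values was not tested.

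Genes that followed the 2 patterns most closely were ranked by Pearson r with the mean of each group over the 8 mice, among 1705 named genes outside the set with an SD of at least 0.3. For class I the 8 highest were Uba7 (0.942), 1700025B11Rik (0.936), C1qa (0.935), Pde6h (0.928), Wfdc15b (0.924), Ms4a8a (0.922), Zbp1 (0.921) and Cd5l (0.92). Uba7 activates the ubiquitin-like protein ISG15, Zbp1 senses nucleic acids, C1qa is a complement chain and Cd5l a protein of macrophages, and both are also in the macrophage list. Of the 1705, 19 had r over 0.9 with class I and 0 with class II. For class II the 8 highest were Cxcl9 (0.845), Kcne3 (0.814), Rab6a (0.787), Cxcr6 (0.769), Cldn2 (0.764), N6amt1 (0.763), Trim12a (0.746) and Cxcl1 (0.744). Cxcl9, a chemokine induced by interferon-gamma, stood at -0.03, -1.26, 1.06, -0.61 and -0.12 across wild types 14, 15, 21, 22 and 26 and at -0.51, -0.37 and -1.10 across knockouts 27, 31 and 33, while Cxcr6 is a chemokine receptor of lymphocytes. Without wild-type mouse 22, 0 of the 8 class I and 2 of the 8 class II names were again among the 8 highest. With the sign turned 7 and 5 were, and over the wild types alone 3 and 0 were.

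Of the 9 genes, 7 lie on mouse chromosome 17, between Tapbp and H2-Eb1, mixed with genes that have no part in antigen presentation. The 12 such neighbours with a probe had a wild-type SD between 0.024 and 0.154 (median 0.089), close to the median of 0.106 over all features, against a median of 0.445 for the 9 genes. Other antigen presentation genes of this stretch had a wild-type SD of 0.02 (H2-DMb1), 0.06 (H2-Ob), 0.12 (H2-Oa), 0.15 (H2-DMb2), 0.16 (H2-K1) and 0.37 (H2-DMa). A wide spread was thus not shared by all antigen presentation genes there. In the knockout 9 of the 12 neighbours were lower and 3 higher (median -0.07), and with the sign turned 4 were lower and 8 higher. Ring1, a Polycomb ubiquitin ligase, stood at -0.16 ± 0.05, Rgl2 at -0.16 ± 0.06 and the prefoldin subunit Pfdn6 at 0.14 ± 0.06 (limma adjusted p = 0.484 to 0.53), and at 0.14, 0.15 and -0.17 with the sign turned.

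**Figure D4:**
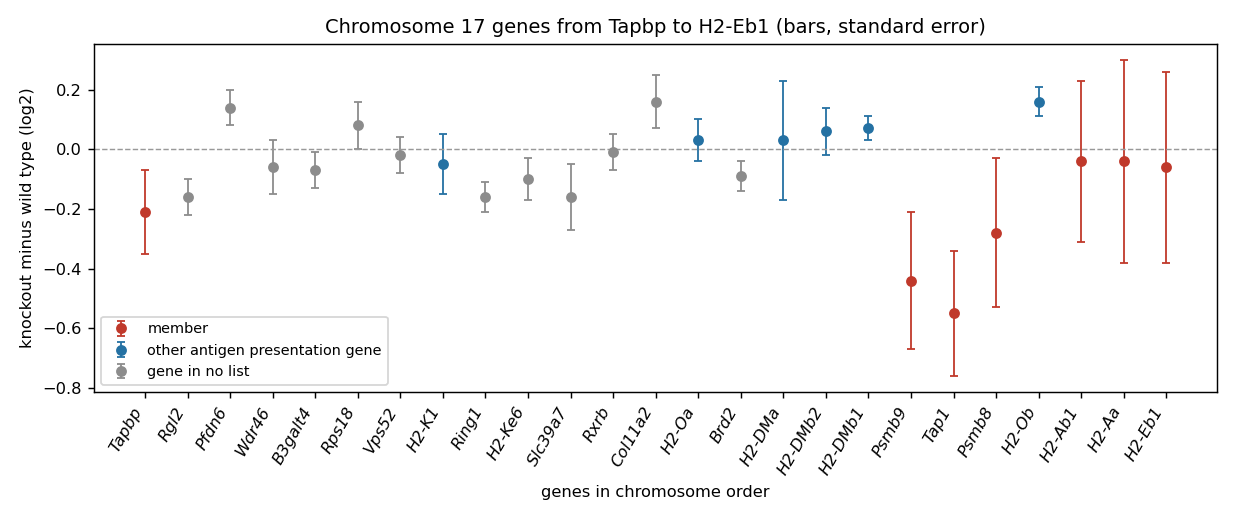
Knockout minus wild-type difference in log2 ratio (vertical axis) of the measured genes from Tapbp to H2-Eb1 in chromosome order (horizontal axis), with bars for the standard error of the limma fit, red for the genes described here, blue for other antigen presentation genes and grey for the rest. Psmb9, Tap1 and Psmb8 stand side by side at -0.44, -0.55 and -0.28, while the grey genes lie between -0.16 and 0.16.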

How the data were processed

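The authors deposited 1 column of log10 ratios per mouse (39556 probes, no missing value), from 2-colour arrays with Cy3 and Cy5 and, per the series' design text, dye swaps. Per the labels' protocols, total RNA was purified on RNeasy columns, DNase-treated and amplified with aminoallyl labelling. The background correction, the normalization, the merging of dye swaps and whether the pool holds the same 5 wild-type mice are not given in these sources. Base 10 and the direction were inferred: over the 300 most variable probes the median of the mean wild-type ratio was 0.999 when read as log10 (mouse over pool), 1.33 when turned and 0.968 as log2. The median log10 ratio lay between -0.0052 and 0.0075 in every array.

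Probes were named by the platform annotation, which lists 23283 with 1 symbol and none with several, and 16273 had no symbol. Symbols were updated through a table of GRCm38.p6. Values were turned to log2, probes of 1 symbol were averaged, and limma 3.58.1 (R 4.3.3; lmFit, eBayes) was fitted without covariates and tested on simulated data. Exact tests ran in Python 3.11.15. The number of arrays limits the precision. Nothing says beyond the mouse numbers how samples were taken, so p-values measure the spread between these mice. Every gene of the set was described. The lists' 3 genes of smallest p, the 8 genes most alike and the neighbours were named by rule. H2-K1, H2-D1, Ciita, H2-DMa, Irf1 and Psmb10 were added for their role after values were seen. H2-DMb1, H2-DMb2, H2-Oa, Irf2 and Irf9 were also added after values were seen. Genes and lists were chosen with earlier results of these data known. Alternatives were centring, quantile normalization, a variance filter, array weights, turned signs, the pool as reference, single probes and mice left out.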

Additional observations from a re-analysis of the deposited data

Results flagged for a closer look

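Among 45 values examined in the wild types (the 9 genes, the 3 within-mouse replacements and the genes named from lists and neighbours), 1 mouse stood apart by Dixon's criterion for 5 samples. It was wild-type mouse 15 for the neighbour Ring1, at 0.12 against -0.03 to -0.01 in the other wild types. Chance alone gives about 1 such value in 20 groups. The 9 antigen presentation genes had none.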

How the results depend on the processing

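The labels give no litter or other link between knockout and wild-type mice, so no paired analysis was possible and litter was not in the fit. The count of features past adjusted p 0.05 (10) was 17 without the least variable 25% of features, 207 with array weights, 215 for the knockouts against the pool, 16 with probes tested singly, 19 without mice 22 and 33, and 6 to 65 with 1 mouse left out. None of the 9 genes passed under any of these but Psmb9, against the pool, and B2m was not tested under the variance filter, which left it out. The median over the 9 genes became 0.21 with the sign turned. That turn also reversed Tap1 (0.61), Tapbp (0.26), Psmb8 (0.34), Psmb9 (0.53), H2-Aa (0.19), H2-Ab1 (0.21), H2-Eb1 (0.20), Psmb8 minus Psmb5 (0.25), Psmb9 minus Psmb6 (0.64) and Psmb10 minus Psmb7 (0.20). Class II differences near 0 also changed sign: with array weights H2-Aa and H2-Eb1 came to 0.00 and H2-Ab1 to 0.02, and without mice 22 and 33 H2-Ab1 came to 0.05. With 1 mouse left out they ran from -0.09 to 0.18 for Cd74, -0.21 to 0.18 for H2-Aa, -0.19 to 0.16 for H2-Ab1 and -0.24 to 0.15 for H2-Eb1. Psmb8 minus Psmb5 ran from -0.26 to 0.02 and Psmb10 minus Psmb7 from -0.18 to 0.02, which was 0.07 without mice 22 and 33. The median of the other class II genes was 0.02 with array weights and -0.03 to 0.01 with 1 mouse left out. That of the constitutive proteasome was -0.01 with quantile normalization, -0.08 with the sign turned and 0.05 against the pool. Array weights and the variance filter were not run for the within-mouse replacements, which use no shared fit. The median wild-type SD of the 9 genes, 0.445, ran from 0.339 to 0.51 with 1 wild type left out. The causes were not tested. Spot brightness was not used, so signal over background is unknown.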
